A study of Drosophila melanogaster with 2 samples.

Results

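The genes described here encode the COPII coat of Drosophila melanogaster and its partners, namely Sar1, Sec23, Sec24AB, Sec24CD, Sec13, Sec31, Sec16 and Tango1. They were taken as a list of 8 names, and all 8 matched a gene among the 13945 nuclear protein-coding genes of the annotation. The question put to the data was where CrebA, a CREB3-like bZIP factor known to activate secretory genes, was bound around them. Chromatin immunoprecipitation with sequencing (ChIP-seq) used the fly strain CrebA-MiMIC-GFP, in which an eGFP exon inserted in an intron of CrebA makes the gene produce a CrebA-eGFP fusion. Sonicated chromatin of whole larvae, at the wandering stage of the third instar and with both sexes pooled, was precipitated with an antibody to GFP. There is 1 group, with 2 biological replicates that the labels number 4 and 2, and no second genotype, stage or treatment, so no groups were compared and no p-value is given. Signal is read through the tag in a mixture of all larval tissues, and binding in a few cells cannot be told apart from weak binding in many. With no untagged strain among the samples, signal not due to the fusion cannot be told apart either.

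COPII vesicles carry newly made proteins from the endoplasmic reticulum towards the Golgi. The GTPase Sar1 starts the coat on the membrane, Sec23 and Sec24 form its inner layer with Sec24 binding cargo, and Sec13 and Sec31 form the outer cage. Sec16 is a scaffold of the exit sites where the coat assembles, and Tango1 is the receptor that helps bulky cargo such as collagen leave. Sec13 is also a subunit of the nuclear pore.

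Of these genes, Sec24CD alone had a CrebA-eGFP peak at its transcript start, and it had one in every peak list. Sec24CD encodes one of the fly's paralogous cargo-binding subunits. The sequence of the peak is shown because the result turns on this site. The top line gives the part of the peak upstream of the start, dm6 chr2L:2236845-2236991, in the direction of the gene (minus strand), with the sequence ACGTG in capitals. The middle line gives the CREB3 family site in the 5′ UTR, chr2L:2236795-2236824, same strand, where the capitals are the reverse complement of CCACGTCA. The bottom line gives the cyclic AMP response element (CRE), TGACGTCA, in capitals, which lies further upstream at chr2L:2237002-2237031. All were read from the Release 6 RefSeq assembly.
Sec24CD peak: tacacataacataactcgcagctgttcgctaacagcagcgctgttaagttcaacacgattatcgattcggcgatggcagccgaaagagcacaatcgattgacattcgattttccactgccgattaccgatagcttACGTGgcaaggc
Sec24CD CREB3 site: aattagggaacTGACGTGGaagttcgttta
Sec24CD CRE: aacgtatttaaTGACGTCActgcattctat

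The Sec24CD gene (FBgn0262126, 2L 2231106 to 2236844, minus strand) has 1 annotated start, at 2236844. In the optimal list, thresholded by the authors on the irreproducible discovery rate (IDR), and in the relaxed list of both replicates pooled, its peak ran from 2236811 to 2236991. That peak had its summit 57 bp upstream of the start and a signal of 263. Signal is the authors' own value for a peak within its list, with no scaling stated. In the relaxed list of replicate 4 the peak ran from 2236749 to 2237132, with the summit 97 bp upstream and a signal of 96.4. In replicate 2 it ran from 2236828 to 2236967, with the summit 57 bp upstream and a signal of 163. Both replicates thus placed a summit in the same stretch, 40 bp apart. The peak ranked 138 among 2238 peaks of the optimal list, 137 among 29999 in the pooled list, 216 among 29999 in replicate 4 and 150 among 29999 in replicate 2. Each replicate list put it in its strongest 1%, at 0.72% and 0.5% of the list. The deposited −log10 q-value was at the highest of each list, namely 3.12 in the optimal and pooled lists, 3.09 in replicate 4 and 3.18 in replicate 2. The q-value therefore does not order the peaks at this level of signal.

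**Figure D1:**
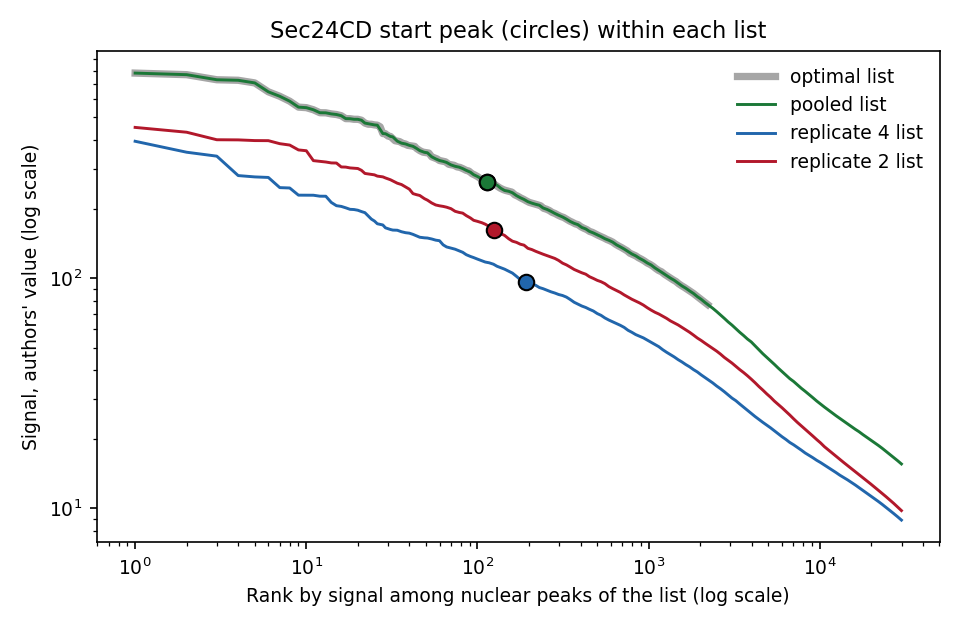
Signal of nuclear peaks (authors' value, log scale) against their rank in each of the 4 lists (log scale), with the start peak of Sec24CD as a circle. It has nuclear rank 113 in the optimal and pooled lists (1 shared circle, signal 263), 193 in replicate 4 (96.4) and 125 in replicate 2 (163).

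Among the nuclear optimal peaks the Sec24CD peak was strong, and its listed interval was short. Of 2209 such peaks, 2110 had a summit within 200 bp in both replicate lists, and its signal was above that of 94.8% of these (median 110). Its listed width of 181 bp compares with 404 bp at the median and at both quartiles, and 7.54% of the peaks were narrower. In replicate 4 its width was 384 bp, the median of that list. In replicate 2 it was 140 bp, against a median of 404 bp. The replicates differed in signal at Sec24CD by a ratio of 1.69, replicate 2 over replicate 4, inside the middle range of these peaks (quartiles 1.02 and 1.77). The offset of 40 bp between replicate summits also lay within the quartiles of 13 and 62 bp. Ranked by its strongest optimal peak at a start, Sec24CD was in place 63 of 707 genes. The genes whose start peaks were most like it, by the summed absolute log2 differences of signal over the pooled, replicate 4 and replicate 2 lists among 2217 candidates, were CG34056 (0.218), aru (0.226) and MFS14 (0.246). The signals at CG34056 (3L 895690 to 895898) were 264, 88.3 and 173 in that order of lists. At aru (2L 865976 to 866136), which encodes an adaptor of the Eps8 family, they were 264, 107 and 155.

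No other coding gene starts within 500 bp of the Sec24CD summit. The summit lies in an exon of asRNA:CR44115 (2L 2236347 to 2237022), an antisense RNA on the plus strand that spans the start of Sec24CD and itself begins 554 bp from the summit. Upstream, the 3′ edge of Tengl3, a member of a family named for its likeness to endonuclease G, is 175 bp away. The remaining summits within 2000 bp of Sec24CD were weak. The pooled list had one 1462 bp upstream (signal 19.2, rank 21088), 55 bp from the start of Tengl3. Replicate 4 had one in the coding sequence of Tengl2 (signal 8.97, rank 29562). Replicate 2 had one in the 5′ UTR of Tengl3 (13.5, rank 17976), within 200 bp of the pooled summit, one in the 3′ UTR of Sec24CD (18.3, rank 10859) and one in the 3′ UTR of the neighbouring gene sau (10.1), the fly homologue of GOLPH3.

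Both Sec24 paralogues carry the CREB3 family site in the 5′ UTR, and a peak was listed at only one of them. CCACGTCA was found, as its reverse complement, at transcript bases 32 to 39 of Sec24CD and 16 to 23 of Sec24AB, counting the start as base 1. These were the only members with it among windows from 250 bp upstream to 50 bp downstream of the gene's 5′ end. Over all genes 52 of 13945 such windows held it (0.373%), and of those 52 genes 5 had an optimal peak at a start (9.62%, against 5.07% of all genes) and 10 a pooled one (19.2%, against 23.7%). At Sec24CD the middle of the site was 91.5 bp from the optimal summit, and the optimal peak ends within it. The interval of replicate 4 holds the site whole, as well as the CRE, whose middle is 115.5 bp from the optimal summit. Among windows of 100 bp to either side of the 2209 nuclear optimal summits, 6 held CCACGTCA (0.272%), the one at Sec24CD among them. The E-box CACGTG, the GAGA factor sequence GAGAG, the GATA sequence AGATAA and the forkhead sequence TGTTTAC were not in the Sec24CD summit window. They were in 2.58%, 39.9%, 15.2% and 6.20% of all such windows. ACGTG was there at 2 places, one of them inside the CREB3 family site, and in 19.5% of all windows. The Sec24CD window had a GC content of 45.8%, against a median of 39.8%. Of the other members, Tango1 had 1 AGATAA in its start window, 150 bp upstream, and Sar1, Sec13, Sec31, Sec23 and Sec16 had none of the 8 motifs. A match of letters is a description and not a bound site.

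The Sec24 paralogues also share an antisense RNA over the start, a feature looked for after the place of the peak had been seen. The start of Sec24AB lies inside asRNA:CR45467 as that of Sec24CD lies inside asRNA:CR44115. These were 2 of the 8 members, while 235 of 13945 genes (1.69%) had an annotated antisense RNA over their 5′ end.

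The other 7 genes had no summit within 500 bp of a start, nor in the gene or within 2000 bp of it, in any list. They were Sar1, Sec23, Sec24AB, Sec13, Sec31, Sec16 and Tango1. The members with a summit at a start were thus 1 of 8, or 12.5% (exact 95% interval 0.316 to 52.7, counting error only), in each list. Among all nuclear protein-coding genes the share was 5.07% in the optimal list, 23.7% in the pooled list, 24.3% in replicate 4 and 26.0% in replicate 2. With summits of both replicates required within 200 bp of each other it was 14.8%. Counted in the gene or within 2000 bp, the members were again 1 of 8 in each list, against 11.1%, 43.8%, 46.7% and 47.1% of all genes in the same order of lists. Those without a summit in any list were 7 of 8 (87.5%, exact 95% interval 47.3 to 99.7), against 46.1% of all genes. The wide intervals include the background of each list at a start. The members were chosen with earlier results of these data known. The interval for those without a summit in any list therefore cannot serve as a test against 46.1%, and no test was made. Every member was longer than the median gene of 2.17 kb, from 2.25 kb (Sec13) to 13.9 kb (Sec16). Whether gene length bears on the count was not tested. The absence is one of listed peaks, since the relaxed lists end at signals of 15.6 (pooled), 8.89 (replicate 4) and 9.77 (replicate 2). Read counts were not analysed here, so weaker binding was not measured.

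**Figure D2:**
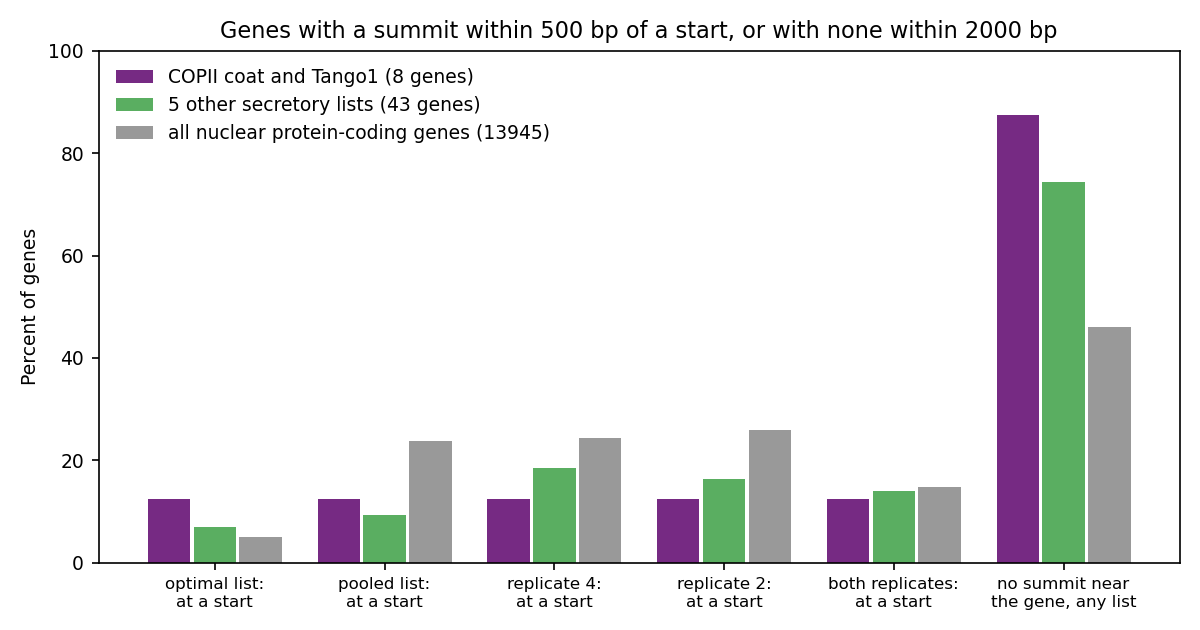
Percent of genes with a summit within 500 bp of a start, by list, and with no summit in the gene or within 2000 bp in any list, for the 8 members, 43 other secretory genes and all 13945 nuclear protein-coding genes. The members stand at 12.5% in each list of start peaks, and 87.5% of them against 46.1% of all genes had no summit.

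Around these 7 genes the nearest listed binding lay at distances from 3.04 kb (Sar1, pooled list) to 169.7 kb (Sar1, optimal list). For the GTPase gene Sar1 (FBgn0038947, 3R 22356685 to 22360711, plus strand, 2 starts) the nearest summit to a start was 3.04 kb away in the pooled list, inside the neighbouring gene rdhB (signal 18.9, rank 21644). It was 3.77 kb away in replicate 4, 12.3 kb in replicate 2 and 169.7 kb in the optimal list. The inner coat gene Sec23 (FBgn0262125, 3R 5649065 to 5652629, plus strand) was the farthest from a summit in the 3 relaxed lists, at 38.3 kb in the pooled list and 37.5 kb in each replicate. In the optimal list its nearest summit was 131.9 kb away, closer than that of Sar1. For Sec24AB (FBgn0033460, 2R 9876232 to 9882357, minus strand) the distances were 18.7 kb pooled, 13.6 kb in replicate 4, 13.3 kb in replicate 2 and 19.7 kb in the optimal list.

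The cage genes had no closer summit than 7.67 kb. Sec13 (FBgn0024509, 3R 23356278 to 23358531, plus strand, 2 starts) had its nearest summits at 11.9 kb pooled, 11.8 kb in replicate 4, 8.51 kb in replicate 2 and 17.9 kb in the optimal list. Sec31 (FBgn0033339, 2R 8893613 to 8898798, plus strand) had them at 10.1, 7.67, 13.2 and 95.3 kb in the same order, where all 3 relaxed ones lay in the coding sequence of RyR, the ryanodine receptor gene. The optimal peaks nearest to Sec13 and Sec31 had signals of 214 (rank 228) and 109 (rank 1151).

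At the exit site genes the nearest optimal peaks lay upstream, outside the distance counted. The other members without a start peak also had theirs outside it, upstream at Sec23 and Sec31 and downstream at Sar1, Sec13 and Sec24AB. Sec16 (FBgn0052654, X 12596047 to 12609910, plus strand, 3 starts) had an optimal peak 16.3 kb upstream of it, within the gene Pits, with a signal of 158 and rank 500 of the optimal list. Both replicates had a summit there, 12 bp from the optimal one in replicate 4 (49.7, rank 1199) and 1 bp from it in replicate 2 (111, rank 377). A weaker replicate 4 summit was the nearest to Sec16 in that list, at 15.7 kb (38.4, rank 2021). Tango1 (FBgn0286898, 2L 6649388 to 6654574, plus strand) was the member without a start peak that lay nearest to an optimal one. Its summit was 5.88 kb upstream inside CG31635 (2L 6643311 to 6643714, signal 95.1, rank 1521), below the median nuclear optimal signal of 110.1. Matching summits had signals of 43.6 (rank 1569) in replicate 4 and 51.1 (rank 2260) in replicate 2. Closer to Tango1, replicate 4 had a summit 5.74 kb away (21.4, rank 5599). Replicate 2 had closer summits at 5.22 kb (27.3), 4.63 kb (103, rank 467) and 4.41 kb (27.1, rank 6133), all inside CG31635. The one of 103 was the strongest in that list within 7 kb of Tango1 and had no pooled or replicate 4 summit within 200 bp. Which gene such a peak acts on was not measured.

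**Figure D3:**
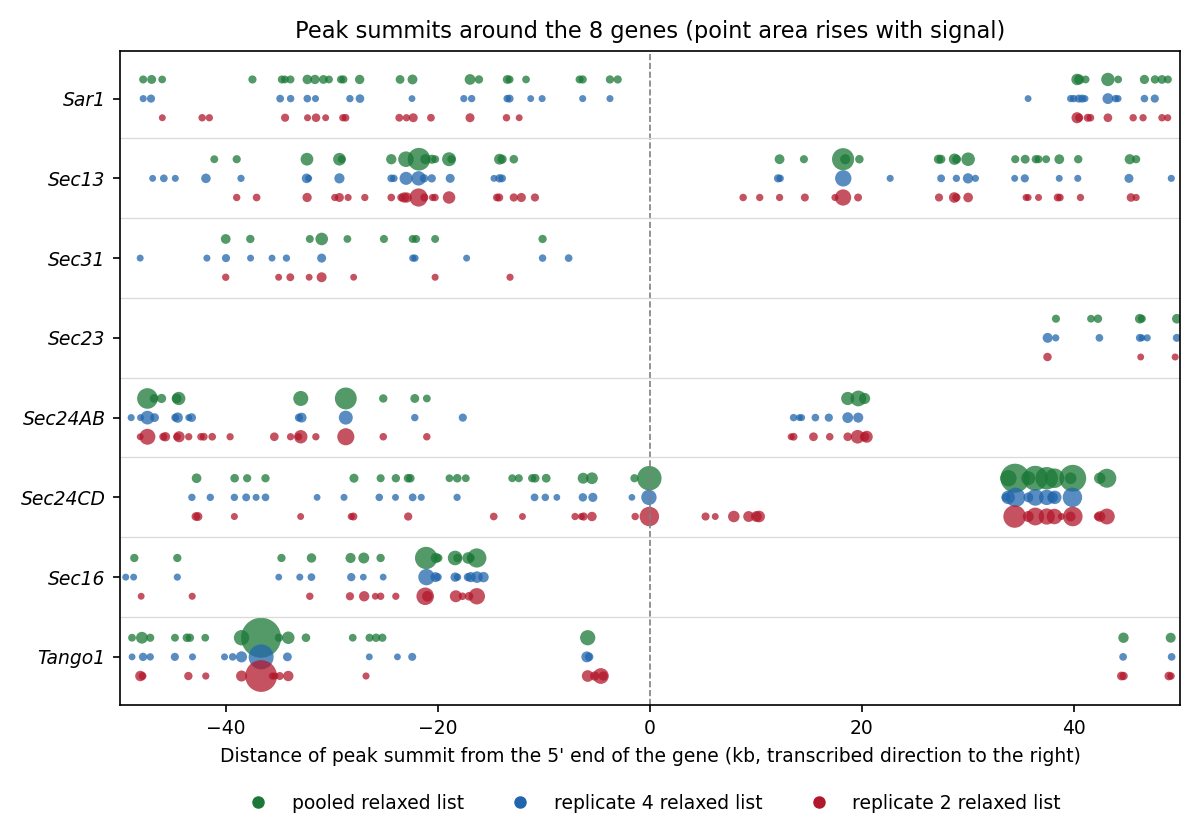
Summits of the 3 relaxed lists within 50 kb of the 5′ end of each of the 8 genes, with distance in kb and transcription to the right. Point area rises with the signal. Points stand at 0 for Sec24CD alone, and Sec23 has the widest empty stretch.

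Over all genes the median distance from a start to the nearest summit was 5.55 kb in the pooled list, 4.28 kb in replicate 4 and 3.92 kb in replicate 2. Farther than the median were 6 of the 8 members in the pooled list, 6 in replicate 4 and 7 in replicate 2. The stretch between the summits on either side of the 5′ end, in the pooled list, ran from 25.1 kb at Sec13 to 168 kb at Sec23, with a gene median of 28.1 kb and an upper quartile of 59.0 kb. It was above the median for 7 of the 8 and above the upper quartile for 3, namely Sec23, Sec31 (81.2 kb) and Sec16 (78.9 kb). In the optimal list 3 of 8 were above the median distance of 32.8 kb.

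**Figure D4:**
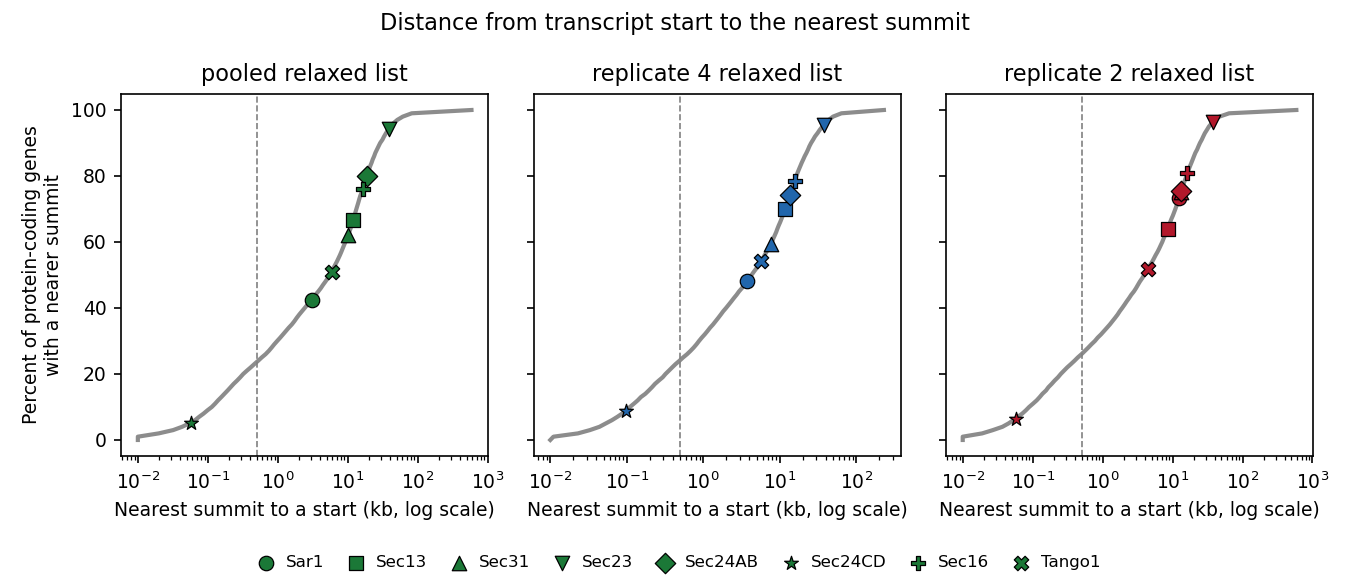
Distance from a start to the nearest summit (kb, log scale) for the 8 members (symbols) and for all protein-coding genes (grey curve, cumulative percent), in each relaxed list. The dashed line marks 500 bp, and only Sec24CD lies to its left, at 0.057 kb in the pooled list and in replicate 2 and 0.097 kb in replicate 4.

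Other genes of the early secretory route had start peaks at a share near that of all genes in the optimal list and below it in the 3 relaxed lists. Over 5 lists of 43 genes, 3 had an optimal peak at a start (6.98%, against 5.07% of all genes). By list they were 0 of 8 for the COPI coat, 1 of 9 cargo receptors, 0 of 17 fusion and tethering genes, 0 of 2 collagen IV genes and 2 of 7 translocon genes. The cargo receptor gene was loj, of the p24 family (3L 6094743 to 6095146, signal 79.9, rank 2096), and its peak lay near the start of CG10467 as well. Those of the translocon were Sec61alpha, the channel subunit (signal 354.8, rank 72), and Tapdelta, of the translocon-associated complex (524.5, rank 35). Both were stronger than the Sec24CD peak, and loj was just above the lowest optimal signal of 76.9. In the pooled list 4 of 43 had a summit at a start (9.30%, against 23.7% of all genes). In replicate 4 it was 8 (18.6%, against 24.3%), in replicate 2 it was 7 (16.3%, against 26.0%), and 6 had matched summits of both replicates (14.0%, against 14.8%). No summit in any list was found at 32 of the 43 (74.4%, against 46.1%). The collagen IV genes Col4a1 and vkg, whose product is the cargo Tango1 is known for, had start summits in replicate 4 only, with signals of 9.47 and 9.67 near the bottom of that list (ranks 27129 and 26238).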

How the data were processed

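Peak lists in narrowPeak format on dm6 were used. The authors called relaxed peaks in single replicates and in pooled reads with a control alignment, per the deposited notes, and took the optimal list from these by IDR. Peak signal, as deposited by the authors with no scaling stated, was compared within a list, except for the ratio of the replicates' signals, which is given beside that of other peaks. The q-values are the authors' deposited −log10 values. For the aligner, caller and IDR cutoff, names and values were not given in the sources used here. Depth is unknown. The dm3 lists were not used.

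Genes and starts came from Ensembl release 115, and peaks were assigned by summit with pandas 2.3.3 and numpy 2.4.6. Mitochondrial peaks count in ranks of whole lists and in no gene count. Summits within 200 bp were matched. The assignment was tested on simulated data. The 8 motifs sought on both strands were the CREB3 family site CCACGTCA and its core CACGTCA, which overlap. The CRE TGACGTCA, the E-box CACGTG and the ACGTG within it were also sought. The others were GAGAG for GAGA factor, AGATAA for GATA and TGTTTAC for forkhead factors.

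Members, lists and motifs were chosen with earlier results of these data known. Named were all members, genes starting near their summits, pathway genes with an optimal start peak and the 3 genes most like Sec24CD. Neighbours, collagen genes and other pathway genes were named after their values were seen. Of the pathway names Sec62 matched no gene. Alternatives changed distances, summit or interval, list strictness and replicate. Exact binomial intervals (scipy 1.17.1) cover counting error only.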

Additional observations from a re-analysis of the deposited data

How the results depend on the processing

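Sec24CD remained the 1 member with a peak at a start at 250 and 1000 bp, with 5′ ends only, with overlap of peak intervals, with the stronger 1119 optimal peaks, and with each replicate alone. Its summit lies upstream of the transcript, so inside the gene only, 0 members had an optimal or pooled summit. Within 5000 bp 2 members had a pooled one, Sar1 and Sec24CD. The share of all genes at 5000 bp is not given here, so this count has no background beside it. The pooled counts near a gene were added after the data were seen. The signal at Sec24CD was 96.4 to 163 in single replicates. With as many of the strongest peaks of 1 replicate as the optimal list holds, 5 to 6 of the 43 pathway genes had a start peak, against 3: they were zetaCOP, loj, ergic53, Sec61alpha and Tapdelta in replicate 4, and zetaCOP, Arf1, ergic53, Slh, Sec61alpha and Tapdelta in replicate 2. The share of the strongest replicate 4 peaks with a summit at one of the strongest replicate 2 peaks was 59.1%, and it was 52.7% at 100 bp and 63.1% at 500 bp. The share over all genes with these strongest single-replicate peaks is not given here. The pathway change therefore cannot be told apart from a change over all genes, and its cause was not tested. No paired analysis was possible because there is 1 group.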

Other observations

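Peaks strong in 2 relaxed lists were in places missing from the other one, which bears on any absence read from a single list. Of the 2238 strongest peaks of replicate 4, 1301 nuclear ones matched the 2238 strongest of replicate 2 by summit (200 bp), and of these 54 (4.15%) had no pooled summit within 200 bp and 49 (3.77%) none within 500 bp. Of 1666 peaks strong in the pooled and replicate 2 lists, 69 (4.14%) had no replicate 4 summit within 200 bp, and of 1665 strong in the pooled and replicate 4 lists, 14 (0.841%) had no replicate 2 one. Of those missing from the pooled list, one was at the start of ergic53, a lectin receptor for glycoprotein cargo, with signals of 104 (rank 185) in replicate 4 and 132 (rank 240) in replicate 2 and the nearest pooled summit 11609 bp from its 5′ end. zetaCOP, a subunit of the COPI coat, had start summits in replicate 4 (36.5, rank 2220) and replicate 2 (99.6, rank 509), and the nearest pooled one 2179 bp from its 5′ end. The COPI GTPase gene Arf1 had a start summit in replicate 2 (signal 233, rank 66) and none in replicate 4 or the pooled list. Slh, of the family of proteins that bind syntaxins, had a pooled start peak of 73.4 (rank 2430), just below the optimal list. The zetaCOP start summits also lay within 500 bp of a start of CG13032, and those of Slh within 500 bp of one of oaf. The Arf1 summit of 233 was also within 500 bp of starts of CG11109 and asRNA:CR45969. These genes were named after their values were seen. The 7 genes without a peak had none in any of the 3 relaxed lists.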
